A study of Homo sapiens with 3 samples.

Results

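The regions described here are peaks of 8-oxo-7,8-dihydro-2'-deoxyguanosine (8-oxodG), an oxidised form of guanine, that lay in the darkest bands of Giemsa-stained chromosomes. Members were chosen by position alone: a peak belonged to the set when its midpoint fell in a band of stain class gpos100 in the cytogenetic map of genome build hg18. This gave 2615 of the 23641 listed peaks, or 11.1% of the list, in 81 bands. Giemsa-negative bands (class gneg), which stain palest, held 12134 peaks in 409 bands and serve as the comparison. DNA came from MCF10A, an immortal breast epithelial cell line that does not form tumours. The cells were grown in DMEM-F12 medium with horse serum, received no treatment and were in G0, that is, alive but not cycling. Sheared genomic DNA was pulled down with an antibody against 8-oxodG and sequenced. The 3 samples, from 2 experiments, form 1 group and share 1 deposited peak list, so no value has an error over samples, and the depth of each sample is unknown here.

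Giemsa staining of trypsin-treated metaphase chromosomes gives a pattern of dark and pale bands. Dark bands are rich in adenine and thymine, hold few genes for their length, replicate late in S phase and often lie against the nuclear lamina. Pale bands are richer in guanine and cytosine, hold more genes and replicate early. Guanine is the base most readily oxidised in DNA. Its product 8-oxodG can pair with adenine during replication, and the glycosylase OGG1 removes it in the first step of base excision repair.

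Peaks were sparse in the darkest bands. These bands made up 17.6% of the sequenced genome (499.4 Mb) and held 2615 peaks, which is 5.24 per Mb when all bands are pooled. Giemsa-negative bands made up 44.8% of the sequence and held 9.55 per Mb. Averaged over bands, density was 5.22 ± 1.65 peaks per Mb (SD, n = 81 bands) against 9.36 ± 6.04 (SD, n = 409 bands). In a quasi-Poisson regression over the bands of both classes, with chromosome as a term, the darkest bands had 0.591 times the density (95% interval 0.527 to 0.662, adjusted p = 7.58e-21, n = 81 and 409 bands). This p, like the others below, is adjusted over 8 tests by the Benjamini-Hochberg method. It measures the spread between bands within 1 list, and neighbouring bands are not independent. Peaks covered 0.235% of the sequence of the darkest bands and 0.531% of that of Giemsa-negative bands.

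Density was lower in the darkest bands on each of the 18 chromosomes that carry such a band. Chromosomes 15, 17, 19, 20 and 22 carry none. The largest gap was on chromosome 21, where the single gpos100 band had 3.82 peaks per Mb and the Giemsa-negative bands 12.0. On chromosome 7 the pooled values were 3.70 and 10.3, with its 3 darkest bands between 3.64 and 3.77. By ratio the classes were closest on chromosome 16, at 11.4 in its single gpos100 band and 13.9 in Giemsa-negative bands, and on chromosome 3, at 5.37 and 6.73. Giemsa-negative density thus ranged from 6.73 to 13.9 between these chromosomes, while the pooled gpos100 density stayed between 3.70 and 7.27 on all but chromosome 16.

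**Figure D1:**
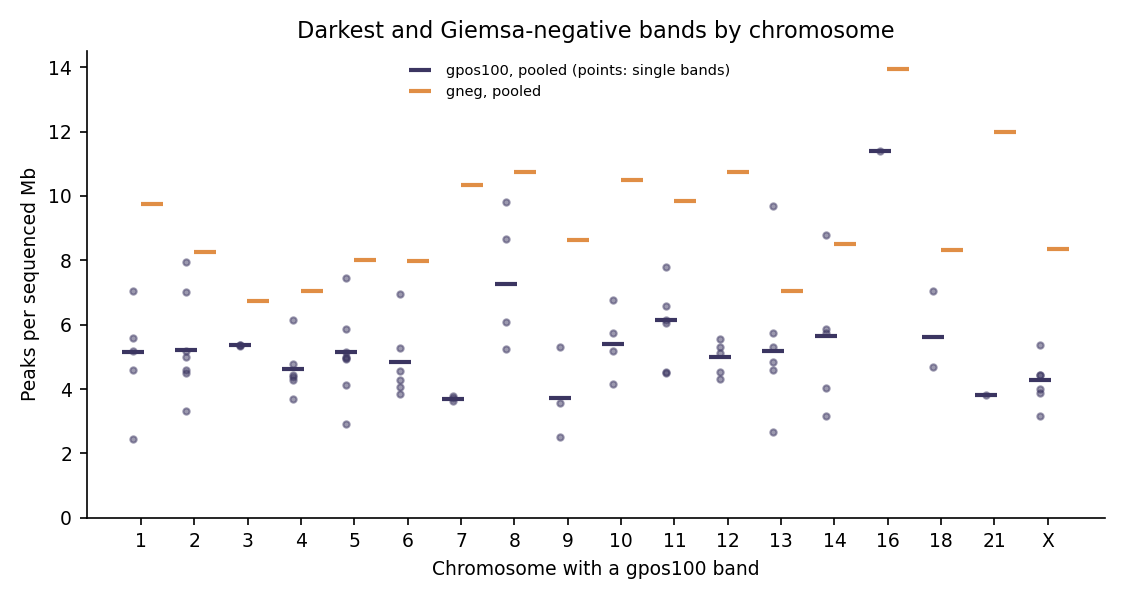
Peaks per sequenced Mb (vertical axis) on the 18 chromosomes with a gpos100 band (horizontal axis). Dark dashes are all gpos100 bands of a chromosome pooled, dark points its single gpos100 bands and orange dashes its gneg bands pooled; the dark dash lies below the orange one on each chromosome, from 3.82 against 12.0 on chromosome 21 to 11.4 against 13.9 on chromosome 16.

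The spread between bands was narrow in the darkest class. Of its 81 bands, 48 had 4 to 6 peaks per Mb, 11 had 3 to 4, 13 had 6 to 8, 4 had fewer than 3 and 5 had at least 8. The quartiles were 4.27 and 5.74 around a median of 5.00, against 5.45 and 11.5 around 7.62 for Giemsa-negative bands. The SD was 31.6% of the mean in the darkest bands and 64.5% in Giemsa-negative bands. Relative to counting error, the variance of peak counts was 3.12 times as large in the darkest bands and 11.1 times in Giemsa-negative bands. No test of this difference was made. The classes also differ in make-up. Giemsa-negative bands include 38 outermost bands of chromosome arms, bands as short as 0.1 Mb and those of 5 chromosomes without a gpos100 band. The darkest class has 0 outermost bands and its shortest band is 3.1 Mb. Counts per band in the darkest class ran from 12 to 97 with a median of 29. The exact Poisson interval of a single band, which covers counting error only, is thus wide. It lay wholly below the pooled Giemsa-negative density in 71 bands, held that density in 10 and lay above it in 0.

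**Figure D2:**
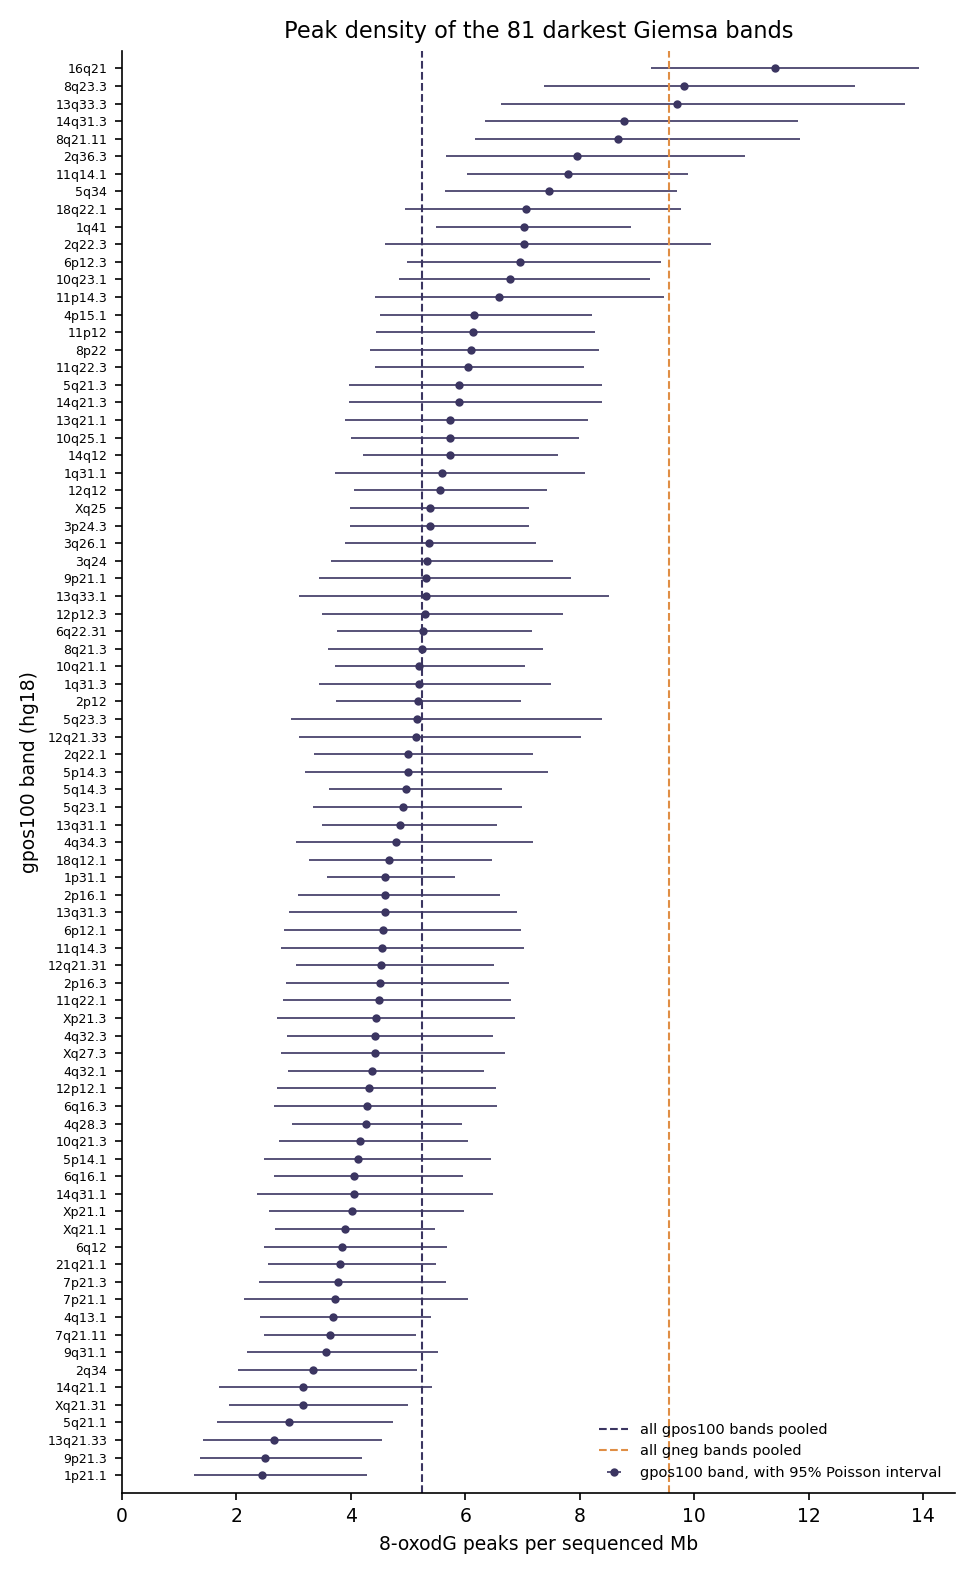
Peaks per sequenced Mb (horizontal axis) in each of the 81 gpos100 bands (vertical axis, ranked), with exact 95% Poisson intervals as bars. Dashed lines mark the pooled density of gpos100 bands (5.24) and of gneg bands (9.55); densities run from 2.45 in 1p21.1 to 11.4 in 16q21.

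The densest of the darkest bands was 16q21, at 11.4 peaks per Mb (97 peaks over 8.5 Mb, 95% interval 9.25 to 13.9). This band holds the cadherin genes CDH8 and CDH11, which encode calcium-dependent adhesion proteins. It was followed by 8q23.3 with 54 peaks in 5.5 Mb (9.82 per Mb, interval 7.38 to 12.8) and 13q33.3 with 32 peaks in 3.3 Mb (9.70, interval 6.63 to 13.7). The next were 14q31.3 (8.78 per Mb), 8q21.11 (8.67), 2q36.3 (7.96), 11q14.1 (7.79) and 5q34 (7.47). Of these 8 bands, 3 lie on chromosome arms whose median background under the peaks was high. There the median background at the summits was 1.26 fragments in 16q21, 1.46 in 8q23.3 and 1.32 in 8q21.11. It was 1.13 in 5q34, 0.912 in 2q36.3 and 0.881 in 11q14.1. In both 13q33.3 and 14q31.3 it was 0.786, the median of the 81 bands. The 5 gpos100 bands on arms whose median background exceeded that of the median arm by 1.4 times or more had a median density of 8.67 per Mb, and the other 76 bands 4.89. The part of background in these densities was not tested, and without these arms the ratio of the darkest to Giemsa-negative bands was 0.578. Arm 5q, at 1.17 times the median arm, stayed in that fit. Its band 5q23.3 had the highest median background of the 81 bands, 1.49 fragments.

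The sparsest of the darkest bands was 1p21.1, at 2.45 peaks per Mb (12 peaks over 4.9 Mb, 95% interval 1.27 to 4.28). Close to it stood 9p21.3, the band of the cell cycle inhibitor gene CDKN2A, with 14 peaks in 5.6 Mb (2.50, interval 1.37 to 4.19). Its median background at the summits, 0.535 fragments, was the lowest of the 81 bands, and fewer copies of the band and less 8-oxodG cannot be told apart. The bands 13q21.33 (2.65 per Mb), 5q21.1 (2.92), Xq21.31 (3.16), 14q21.1 (3.17), 2q34 (3.33) and 9q31.1 (3.57) completed the lowest 8. The intervals of 13q21.33 (1.41 to 4.54) and of 1p21.1 overlap, so the order among these bands is not resolved by counting. Reads were not mapped here and mappability was not measured, so sequence to which reads do not align may lower some of these densities.

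Bands known for particular genes were spread through this range. The list was set by band name, and gene positions on hg18 were not checked, so a band's density says nothing of the gene itself. The 9 gpos100 bands known for very long genes had a median density of 4.51 peaks per Mb, against 5.00 over all 81, with 7 below that median and 1 above. In this list the density was 3.64 in 7q21.11 (MAGI2, a synaptic scaffold), 4.02 in Xp21.1 (DMD, which encodes dystrophin) and 5.32 in 9p21.1 (LINGO2). The 7 bands of cadherin and protocadherin genes, which encode cell adhesion proteins, had a median of 5.00, with 3 above and 3 below. They ran from 3.16 in Xq21.31 (PCDH11X) through 4.68 in 18q12.1 (CDH2, or N-cadherin) and 6.16 in 4p15.1 (PCDH7) to 16q21. The 7 bands of DNA repair and damage response genes had a median of 5.24, with 4 above and 3 below. Among these, 4q34.3, the band of NEIL3, a glycosylase for oxidised bases, had 4.79, 11q22.3, the band of the checkpoint kinase ATM, 6.05, and Xq21.1, the band of the chromatin remodeller ATRX, 3.89. The highest of this list was 13q33.3, the band of LIG4, a ligase for DNA breaks.

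Local comparison gave a smaller contrast than the comparison of whole classes. A Giemsa-negative band lay on both sides of 80 of the 81 darkest bands. Of these 80, 40 (50%) were lower in density than both neighbours, where 33% of the 702 bands of all classes, Giemsa-negative included, that lie between neighbours of another class were lower than both. By class, the share lower than both was 23.4% in Giemsa-negative bands. It was 45.9%, 31.9% and 43.7% in the stain classes gpos25, gpos50 and gpos75, named from pale to dark. Of the 80 darkest bands, 10 were higher than both neighbours. The ratio of a dark band's density to the mean of its neighbours had a median of 0.798 and ran from 0.366 to 1.96. The highest ratio was that of 1p31.1, at 4.61 peaks per Mb between 4.71 in 1p22.3 and 0 in 1p31.2. The latter band has only 0.8 Mb of sequence. Bands such as 9q31.1, with 3.57 peaks per Mb between 5.88 and 9.03, and 7q21.11, between 9.53 and 6.11, lay well under both flanks. In contrast, 8q21.11 at 8.67 stood above flanks of 5.88 and 4.44. When the regression was limited to the Giemsa-negative bands that border a gpos100 band, the density ratio was 0.762 (95% interval 0.695 to 0.835, adjusted p = 8.6e-08, n = 81 and 137 bands).

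Density was alike on both sides directly beside the band borders. In the first 0.25 Mb inside the darkest bands, density was 5.85 peaks per Mb (95% Poisson interval 5.13 to 6.65, over 161 borders). In the first 0.25 Mb on the pale side it was also 5.85 (5.12 to 6.65, over 160 borders). The intervals by distance cover counting error only, not the spread between bands. The 137 Giemsa-negative bands that border a gpos100 band had 6.91 peaks per Mb over their whole length and the other 272 had 10.9, so the bordering bands were sparser as a whole. Further into the pale bands it was 6.61 at 0.75 to 1 Mb and 8.11 at 1.75 to 2 Mb (6.56 to 9.92). The farther bins hold only the longer pale bands, 47 borders in the last, so this course mixes distance with band length. Inside the darkest bands, density was 5.27 at 0.75 to 1 Mb and 5.44 at 1.75 to 2 Mb, with a lowest value of 4.55 at 1 to 1.25 Mb. The borders of cytogenetic bands are known only roughly on the sequence, and 99 members (3.79%) lay within 100 kb of one.

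**Figure D3:**
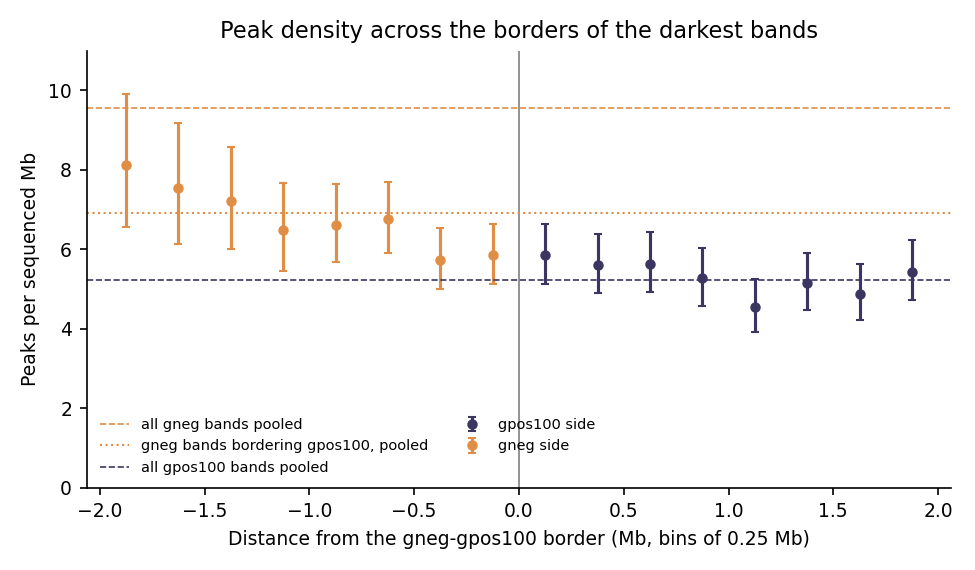
Peaks per sequenced Mb (vertical axis) by distance from the border between a gneg and a gpos100 band (horizontal axis, Mb), in bins of 0.25 Mb. Bars are exact 95% Poisson intervals, which cover counting error only. Dashed lines are all bands of each class and the dotted line the bordering gneg bands (6.91). Both sides start at 5.85 beside the border; the gneg side reaches 8.11 in its farthest bin and the gpos100 side stays between 4.55 and 5.85.

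Within a band, the outer 25% at each end was compared with the inner 50%. In the darkest bands density was 5.36 peaks per Mb at the edges and 5.11 in the core, and the edge was denser in 44 of 81 bands. The fitted ratio of edge to core was 1.05 (95% interval 0.959 to 1.15, adjusted p = 0.34, n = 81 bands), so no difference was detected. With the outer 1 Mb taken as the edge the ratio was 1.12 and passed (adjusted p = 0.0317, n = 81 bands). Giemsa-negative bands of at least 2 Mb showed the opposite order, at 9.34 and 10.2, with the edge denser in 130 of 303. That order was not tested on its own. These bands include outermost bands of chromosome arms, which have a chromosome end as an edge, and no edge-to-core fit left them out. The darkest class has 0 such bands. The ratio of edge to core was 1.14 times as high in the darkest bands as in Giemsa-negative bands (interval 1.02 to 1.28, adjusted p = 0.0362, n = 81 and 303 bands). This call was lost with peaks closer than 1 kb joined (1.12), on autosomes alone, where the value was 1.10 (adjusted p = 0.15, n = 75 and 289 bands), and with chromosome 1, 4, 7 or 11 left out (1.13, 1.13, 1.12 and 1.12).

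Members lay far apart. The median distance between neighbouring midpoints in the same band was 125 kb in the darkest bands, with quartiles of 48.1 and 253 kb, over 2521 distances. In Giemsa-negative bands it was 48.0 kb, with quartiles of 16.7 and 124 kb, over 11628 distances. Neighbours within 10 kb made up 7.66% of distances in the darkest bands and 16.9% in Giemsa-negative bands. Distances of at least 0.5 Mb made up 6.74% and 1.90%. Giemsa-negative bands were shorter (median 2.8 Mb against 5.9 Mb), which leaves less room for such distances. The shortest distance between members was 308 bp. By band, the median distance was lowest in 13q33.3 (50.3 kb) and highest in 13q21.33 (379 kb), 2 bands of the same chromosome arm.

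Spacing was also more even in the darkest bands, beyond being wider. The median distance divided by the mean distance of the same band, a measure that falls when peaks gather in groups, was 1.10 times as high in the darkest bands (95% interval 1.02 to 1.19, adjusted p = 0.0176, n = 81 and 380 bands). Pooled over all distances, the median was 0.683 times the mean in the darkest bands and 0.501 times in Giemsa-negative bands. These pooled values also carry the spread of density between bands, which was larger among Giemsa-negative bands, so they do not measure evenness within bands. With the median background of each band as a second term, an alternative chosen after seeing the data, the difference in evenness no longer passed (1.06, adjusted p = 0.346, n = 81 and 380 bands). Nor did it pass against the Giemsa-negative bands that border a gpos100 band (1.10, adjusted p = 0.0625, n = 81 and 126 bands), or among peaks of at least median width (1.065, adjusted p = 0.251, n = 71 and 285 bands).

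Groups of close peaks were nevertheless found. The largest within 50 kb was in Xq25, where 7 peaks spanned 11489 bp (chromosome X, 129460186 to 129471674). Pileups there reached 92 fragments over a median background of 1.73. The widest peaks of this group lie less than 1 kb apart and fall in a single peak when peaks closer than 1 kb are joined. Next came a group of 6 peaks in 1q41 (chromosome 1, 221419320 to 221455131), with pileups of up to 34 over a median background of 0.604. Groups of 5 lay in 12q12 (from 36798706), in 8q23.3 (from 116810190) and, again, in 1q41 (from 221679528). The densest group thus sat in Xq25, a band of ordinary density at 5.38 per Mb that also held one of the longest empty stretches.

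Long stretches without a peak took up much of these bands. Stretches of at least 0.5 Mb numbered 189 and summed to 136 Mb, or 27.3% of the sequence of the darkest bands, against 14.2% in Giemsa-negative bands. Stretches were cut at band borders. The median band length was 5.9 Mb in the darkest class and 2.8 Mb in the Giemsa-negative one, so the latter left less room for long stretches. Stretches of at least 1 Mb numbered 23 in the darkest bands (5.53% of their sequence) and 12 in Giemsa-negative bands (1.11%), and 20 of the 81 bands held one. The longest was 1.48 Mb in 9p21.3 (chromosome 9, 22664749 to 24148591). It was followed by 1.41 Mb in 7p21.1 (17012577 to 18427437), 1.4003 Mb in Xq25 (126320708 to 127721020), 1.39 Mb in 1p31.1 (83306637 to 84700000, where it ends at the band border) and 1.38 Mb in 4q13.1 (63996811 to 65380478). At the other end, no stretch in 2q36.3 was longer than 0.356 Mb, nor in 16q21 longer than 0.365 Mb. Windows of 500 kb without a peak made up 9.80% of 959 windows in the darkest bands (exact 95% interval 7.99 to 11.9) and 4.96% of 2257 in Giemsa-negative bands (4.10 to 5.94). Windows with at least 10 peaks made up 0.521% and 9.88%. The intervals for empty windows take windows of the same band as independent. Counts spread between bands beyond counting error, so these intervals may be too narrow.

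Members were narrower and of lower pileup than peaks of Giemsa-negative bands. Their median width was 418 bp (quartiles 345 and 512), against 464 bp (366 and 619). The median pileup, the number of fragments stacked at the summit, was 21 (quartiles 15 and 35) against 26 (17 and 43). Taking 1 median per band, width in the darkest bands was 0.941 times that in Giemsa-negative bands (95% interval 0.915 to 0.968, adjusted p = 6.27e-05, n = 81 and 387 bands). Pileup was 0.899 times (0.854 to 0.947, adjusted p = 0.000124, n = 81 and 387 bands). The median width was lower in the darkest bands on all 18 chromosomes and the median pileup on 17, with chromosome 18 the exception at 24.5 against 24. Against the Giemsa-negative bands that border a gpos100 band, neither width (0.971) nor pileup (0.945) passed (adjusted p = 0.0542 and 0.0625, n = 81 and 130 bands). Among peaks of at least median width, pileup did not pass either (0.971, adjusted p = 0.291, n = 77 and 324 bands). Between the 81 bands, median width ran from 327.5 bp in 2q34 to 483 bp in 12q21.33, and median pileup from 14.5 in Xp21.3 to 34 in 16q21.

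**Figure D4:**
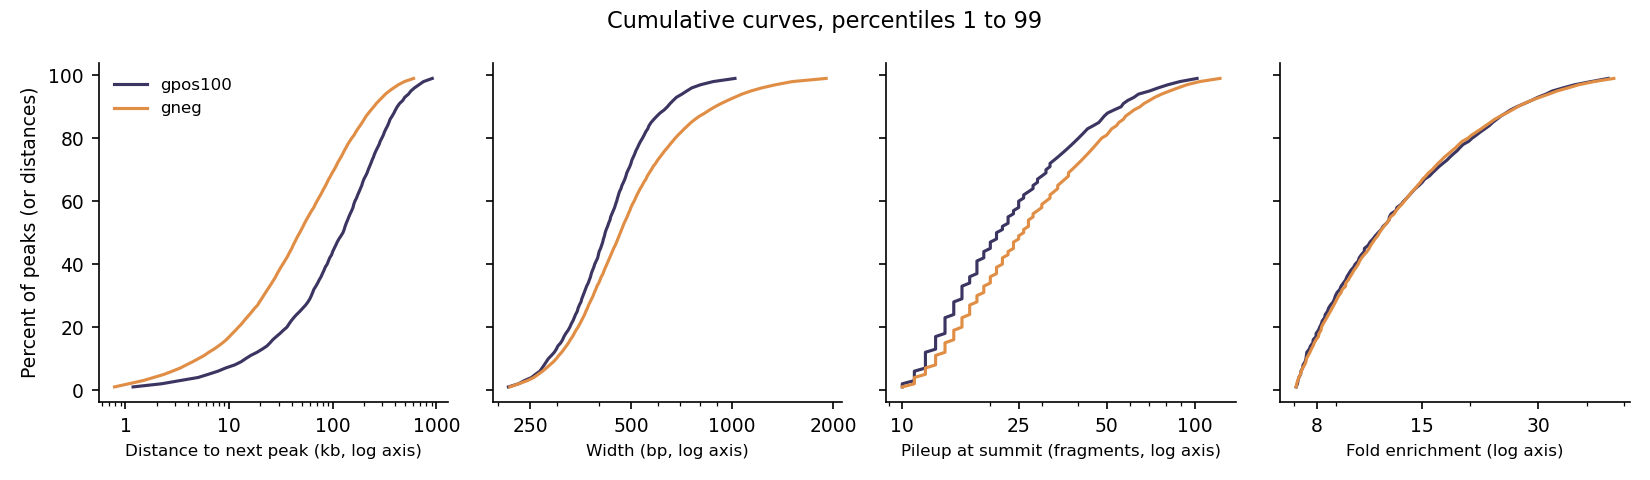
Cumulative curves (percent of peaks or distances, percentiles 1 to 99) of distance to the next peak, width, pileup and fold enrichment on log axes, for gpos100 and gneg bands. The distance curves are farthest apart (medians 125 and 48.0 kb), width and pileup are shifted less (418 and 464 bp, 21 and 26 fragments), and the fold curves lie on each other (11.6 each).

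Fold enrichment, which equals pileup plus 1 over background plus 1 in these files, did not differ detectably. Its median over peaks was 11.6 in both classes. By band the ratio was 1.00 (95% interval 0.965 to 1.04, adjusted p = 0.96, n = 81 and 387 bands). It passed among peaks of at least median pileup, where fold was 1.11 times as high in the darkest bands (adjusted p = 1.54e-06, n = 75 and 313 bands), and among peaks of at least median width (1.155). Pileup is a component of fold, so the choice of peaks by pileup is not independent of the value tested there. The median fold of a band ranged from 8.29 in Xp21.3 to 18.5 in 5p14.1. Every peak of the list has a fold of at least 7.001, and 18.4% of members and 16.5% of Giemsa-negative peaks had a fold below 8, just above that floor.

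Background at the summit was lower in the darkest bands. It was derived from pileup and fold enrichment, is in fragments, and had a median of 0.849 at members and 1.10 at Giemsa-negative peaks. By band it was 0.850 times that of Giemsa-negative bands (95% interval 0.814 to 0.887, adjusted p = 2.02e-12, n = 81 and 387 bands), and lower on all 18 chromosomes. Background, pileup and fold are tied by this calculation. With the median background of each band as a second term, the ratio of pileup was 1.01 (adjusted p = 0.744) and that of width 0.992 (adjusted p = 0.619, n = 81 and 387 bands), neither of which passed. The density ratio was 0.751 in that fit (95% interval 0.678 to 0.833, adjusted p = 1.10e-07, n = 81 and 407 bands).

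At like background, the median pileups of members and Giemsa-negative peaks were close in the lower ranges, and members were narrower in 6 of 8 ranges of background. These differences were not tested. Among peaks with a median background of 0.472 fragments, the median pileup was 14.5 in the darkest and 14 in Giemsa-negative bands, and the median width 363.5 and 375 bp. Around 0.786 fragments the pileups were 20 and 19 and the widths 406.5 and 400 bp. Around 1.10 fragments they were 24 and 24, and 445 and 436 bp. The classes differed in how peaks were shared out among these levels. The 3 lowest ranges, with medians up to 0.786, held 15.6%, 17.97% and 18.2% of members and 9.21%, 12.6% and 12.8% of Giemsa-negative peaks. The highest range, with medians of 2.99 and 3.30 fragments, held 1.49% of members and 9.75% of Giemsa-negative peaks. In it the widths were 653 and 830.0 bp, and in the range below it, with medians of 1.73 and 1.89 fragments, 524.5 and 581 bp.

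**Figure D5:**
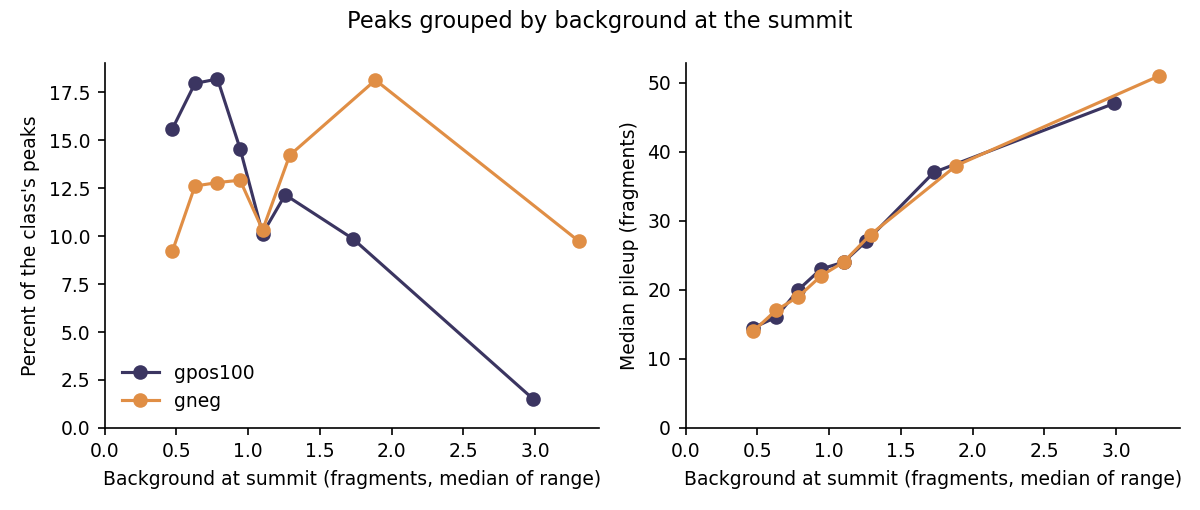
Peaks grouped by background at the summit (horizontal axis, median of each range in fragments): the share of each class's peaks in the range (left) and their median pileup (right). The pileup of gpos100 and gneg peaks runs close together over most of the range (14.5 and 14 at the lowest background, 24 and 24 near 1.10), while the share of peaks above 1.5 fragments is lower for gpos100.

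Wide and very tall peaks were rare among members. Only 30 of 2615, or 1.15% (exact 95% interval 0.775 to 1.63), were at least 1 kb wide, where 5.56% of the whole list and 7.29% of Giemsa-negative peaks (6.83 to 7.76) were. In 63 of the 81 bands no member reached 1 kb, while Xq25 held 6 of the 30 and 10q23.1 held 4. The intervals take each peak as independent and may be too narrow, as wide peaks gathered in some bands. The widest was 2050 bp in Xq25 (chromosome X, 129462996 to 129465045), with a pileup of 92, and the third and the fourth widest, 1913 and 1780 bp, lay beside it in the same group. The second, of 1996 bp, was in 2q36.3 (chromosome 2, 230135705 to 230137700), and the fifth, of 1741 bp, in 4q34.3 (chromosome 4, 181723930 to 181725670). Of the 100 widest peaks in the list 0 were members, and of the 1000 widest 20 (2%).

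By pileup, 2 of the 100 tallest peaks were members. The tallest member, with 168 fragments, was in 8q23.3 (chromosome 8, 117256942 to 117258175), over a background of 3.62. The next were 2 peaks in 16q21 with 167 fragments (chromosome 16, 62898750 to 62899571) and 138 fragments (63659039 to 63659810), then 134 in 14q21.3 (chromosome 14, 44869550 to 44870456) and 129 in 5q34 (chromosome 5, 161872241 to 161872987). All 5 were under 1.3 kb wide, and 4 of the 5 had a width below 1 kb. By fold enrichment members were closer to their share of the list, with 9 of the 100 highest and 92 of the 1000 highest (9.2%).

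The member of highest fold enrichment lay in 11p12 (chromosome 11, 36467757 to 36468833), with a fold of 69.9 and a pileup of 101 over a background of 0.460, the lowest in the list. It was part of a group of 4 peaks spanning 35584 bp. The band 11p12 starts at 36400001, so this peak lay within 100 kb of a border that is known only roughly. The next, in 2p12 (chromosome 2, 77917387 to 77918069), had a fold of 64.4 over the same background. This value was also the lowest among Giemsa-negative peaks, and whether it is a lower limit of the derived background was not tested. The others were in 10q23.1 (fold 59.0, from 87485370), 16q21 (58.3, from 63659039) and 9p21.1 (57.6, from 28399682), with backgrounds of 1.07, 1.38 and 1.10. The peak in 16q21 was thus among the 5 highest by both pileup and fold.

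Across the 81 bands, values that share the same peaks and background moved together to differing degrees, given here as a description. Density and the mean density of the neighbours had a Spearman's rho of 0.371 and a Pearson's r of 0.507. Density hardly followed the length of the band (rho = 0.066), so that 1p31.1, the longest at 15.2 Mb, had 4.61 peaks per Mb (95% interval 3.59 to 5.82). For density and median background, rho was 0.237 and r 0.462. Across single members, width and fold enrichment had a rho of 0.654, against 0.529 in Giemsa-negative bands, and pileup and background a rho of 0.487 against 0.583.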

How the data were processed

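Per the submitters' processing notes, BWA, SAMtools, bedtools and hg18 were used, without versions or roles. The authors deposited 1 peak list for 3 samples; the caller and the pooling of samples were not given in the sources used here. Per the file headers it gives positions, pileup (a signal in fragments), fold enrichment, and p and q as −log10. The last 3 lost their decimal points in the deposited file and were read as a score. The points were restored from the Poisson relation between pileup, fold and p, met within 0.01 by 23640 of 23641 peaks. Background equals (pileup + 1) / fold − 1.

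Bands came from circlize 0.4.16 and sequenced contigs from IRanges 2.36.0 (R 4.3.3). Densities are midpoints per sequenced Mb. Density and edge-to-core ratios were fitted by quasi-Poisson regression, medians of bands with at least 5 peaks (or distances) by linear regression on log2 values. Tests are two-sided F tests at a threshold of 0.05. On simulated bands the density and median fits returned the ratios put in, but the density test passed more often than its threshold allows where no difference was put in, so its p-values may be too small; the edge-to-core fits were not simulated. Python 3.11.15, pandas 2.3.3, scipy 1.17.1 and matplotlib 3.10.9 were used. Named bands were the 8 densest and sparsest and the fixed lists; named peaks, groups and empty stretches were the top 5 of each measure. Members and lists were chosen with earlier results of these data known. No sequence is shown because no hg18 genome was used here.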

Additional observations from a re-analysis of the deposited data

How the results depend on the processing

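No value over samples could be had from 1 combined list, and no paired analysis was possible because the list has no column per sample. Lower density and lower background in the darkest bands kept direction and call in all 15 and all 12 alternatives, with ratios of 0.466 to 0.762 and 0.782 to 0.893. With Giemsa-negative bands limited to those that border a gpos100 band, width (0.971, adjusted p = 0.0542), pileup (0.945) and spacing evenness (1.097, both adjusted p = 0.0625, n = 81 and at least 126 bands) lost their calls. With the band's median background as a term, an alternative chosen after seeing the data, width (0.992), pileup (1.007, reversed) and evenness (1.057) lost theirs. Among peaks of at least median width, pileup (0.971) and evenness (1.065) were no longer called and fold enrichment was (1.155), as it was among peaks of at least median pileup (1.114). The fold ratio, never apart from 1 otherwise, fell below 1 with joined peaks (0.9981), without raised arms (0.9957) and without a chromosome term (0.9932). The edge-to-core ratio of the darkest bands passed with the outer 1 Mb as the edge (1.118, adjusted p = 0.0317, n = 81 bands). Its difference from Giemsa-negative bands lost its call with joined peaks (1.119) and on autosomes (1.097). For changes other than by construction the cause was not tested. With single chromosomes left out, ratios were 0.583 to 0.603 (density), 0.937 to 0.945 (width), 0.891 to 0.906 (pileup), 0.9965 to 1.006 (fold), 0.841 to 0.855 (background), 1.093 to 1.117 (evenness), 1.022 to 1.068 (edge to core) and 1.097 to 1.157 (its difference between classes, called in 18 of 23). Bands lower than both neighbours numbered 40 of 80 in the main setting and 38 of 75 without raised arms. Among peaks of at least median fold enrichment they numbered 31 of 80. The share over bands of all classes, 33%, was taken in the main setting only.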

Other observations

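The next darkest class, gpos75, stood between the darkest and the paler bands. Its 89 bands had a pooled density of 6.51 peaks per Mb, against 8.70 in gpos50, 11.2 in gpos25 and 9.55 in Giemsa-negative bands. The SD over bands was 35.2% of the mean in gpos75, close to the 31.6% of gpos100, and 66.4% in gpos50. Bands lower than both neighbours made up 43.7% of 87 in gpos75, 45.9% of 85 in gpos25 and 31.9% of 116 in gpos50. The share was 50% of 80 in gpos100, 23.4% of 334 in Giemsa-negative bands and 33% over all classes. Among 500 kb windows, 5.16% were empty in gpos75 and 9.80% in gpos100. None of these differences between the stained classes was tested.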
